A study of Homo sapiens with 6 samples.

Results

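Transcript levels of 100 genes that encode glycosyltransferases, the enzymes that build sugar chains onto proteins and lipids, were compared between MDA-MB-231 cells kept in DMSO and cells treated with DSF/Cu (disulfiram with copper). The genes were selected on their names alone, as protein-coding entries of the families ALG, MGAT, GALNT, GCNT, B3GNT, B3GALT, B4GALT, ST3GAL, ST6GAL (with ST6GALNAC), FUT, POFUT, POMT and POMGNT, and they make up 100 of the 58825 genes in the table, 19727 of which are protein-coding. Another 37 entries that carry the same names are pseudogenes, antisense or other noncoding genes and were left out. The name rule reads no expression value, but the set was proposed with results of these data known, so the differences between the treatments are given as a description of these genes.

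MDA-MB-231 is an established human line from a triple-negative breast cancer with mesenchymal features. Poly(A) RNA was sequenced from 3 libraries of DMSO-treated cells and 3 libraries of cells treated with DSF/Cu at 0.2 µM, with treatment for 24 h and the cells of 3 wells pooled per repeat. Disulfiram is a drug used against alcohol dependence that forms a complex with copper. Neither disulfiram alone nor copper alone is among the samples, so the effects of the drug, the metal and their complex cannot be told apart. The labels do not state that repeats came from separate cultures, so the p-values below measure the spread between these libraries alone, and that spread may be technical. The libraries held 55563223 to 70883177 counts.

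Protein glycosylation runs through several linkage types. N-glycans start in the endoplasmic reticulum, where ALG enzymes assemble a branched sugar on the lipid dolichol before its transfer to asparagine, and MGAT enzymes later add GlcNAc branches in the Golgi. O-glycans start directly on serine or threonine, with GalNAc from GALNT enzymes, fucose from POFUT enzymes, mannose from POMT enzymes or xylose in proteoglycans. Galactose, GlcNAc, sialic acid and fucose then extend or cap the chains, and some members of these families (B4GALT5, B4GALT6, B3GNT5, ST3GAL5) act mainly on glycolipids.

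Sequences of 2 kinds are shown, coding stretches of near copies that bear on how their reads were counted, and promoters that were searched for motifs. No change below rests on the promoters, and a link between their letters and the changes was not tested. ALG10 and ALG10B, on chromosome 12 at 34022468 to 34029694 and 38316762 to 38323982 (GRCh38, plus strand), are near copies whose counts moved differently. Their coding sequences in GENCODE 29 are 1419 bases each, differ at 33 positions and are 97.7% identical, with a longest identical run of 148 bases, so that reads cannot always be told apart between them. The stretch of 90 bases that holds the densest differences, coding positions 1269 to 1358, is given with the 6 bases that differ in capitals.
ALG10: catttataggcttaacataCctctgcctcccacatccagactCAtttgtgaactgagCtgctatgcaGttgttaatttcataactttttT
ALG10B: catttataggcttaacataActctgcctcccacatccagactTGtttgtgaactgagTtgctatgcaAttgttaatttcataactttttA

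Promoters are shown for the O-fucose pair, which moved in opposite directions, and for the galactosyltransferase pair of the proteoglycan linker, which moved together. They are RefSeq sequences of GRCh38.p14, 300 bases that span the annotated gene start, read 5' to 3' on the gene's strand. Capitals mark CCACG or its reverse complement CGTGG, the letters that close the endoplasmic reticulum stress response element.
POFUT1 (chr20:32207630-32207929, plus strand): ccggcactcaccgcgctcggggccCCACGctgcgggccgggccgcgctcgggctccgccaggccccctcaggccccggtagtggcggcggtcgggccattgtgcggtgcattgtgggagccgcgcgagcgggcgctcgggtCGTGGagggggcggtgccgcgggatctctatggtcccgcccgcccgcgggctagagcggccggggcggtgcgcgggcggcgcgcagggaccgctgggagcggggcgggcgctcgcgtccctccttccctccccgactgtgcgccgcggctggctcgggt
POFUT2 (chr21:45287846-45288145, minus strand): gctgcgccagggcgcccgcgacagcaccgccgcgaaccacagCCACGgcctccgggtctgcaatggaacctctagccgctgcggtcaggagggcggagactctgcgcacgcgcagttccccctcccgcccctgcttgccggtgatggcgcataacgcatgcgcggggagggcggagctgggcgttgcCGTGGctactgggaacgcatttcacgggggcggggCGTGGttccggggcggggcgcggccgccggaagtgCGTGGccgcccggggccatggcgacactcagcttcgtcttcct
B3GALT6 (chr1:1231987-1232286, plus strand): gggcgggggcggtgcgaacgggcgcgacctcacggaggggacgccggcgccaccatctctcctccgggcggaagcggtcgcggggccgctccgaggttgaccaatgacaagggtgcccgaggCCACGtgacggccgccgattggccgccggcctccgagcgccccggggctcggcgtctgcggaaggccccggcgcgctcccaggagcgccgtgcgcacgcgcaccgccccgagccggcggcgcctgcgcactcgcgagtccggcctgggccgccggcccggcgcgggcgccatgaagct
B4GALT7 (chr5:177599882-177600181, plus strand): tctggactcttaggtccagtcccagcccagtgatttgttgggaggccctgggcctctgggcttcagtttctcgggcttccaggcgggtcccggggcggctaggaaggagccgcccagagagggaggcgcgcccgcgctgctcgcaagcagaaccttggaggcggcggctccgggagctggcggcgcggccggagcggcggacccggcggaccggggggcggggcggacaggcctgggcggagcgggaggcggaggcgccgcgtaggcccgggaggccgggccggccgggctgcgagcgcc
POFUT1 held 2 matches, POFUT2 4, B3GALT6 1 and B4GALT7 0. A match describes letters in this window and shows neither binding nor its absence.

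Within DMSO, levels of different genes were compared as FPKM (fragments scaled to transcript length and library size), the deposited value that takes gene length into account. The 100 genes had a median of 1.94 FPKM, 56 of them reached 1 FPKM and 18 reached 10 FPKM. POFUT1, which puts fucose onto EGF-like repeats such as those of Notch receptors, stood at the top with 50.2 ± 1.03 FPKM (SD, n = 3), followed by MGAT2, which adds the GlcNAc that opens the second N-glycan arm, at 45.1 ± 0.997 FPKM. The galactosyltransferase B4GALT5 stood at 34 ± 0.134 FPKM, the branching enzyme MGAT4B at 27.5 ± 2.48 FPKM and GALNT2, which starts mucin-type chains, at 25 ± 1.62 FPKM. MGAT4B and GALNT2 did not differ beyond their spread, nor did the next in order, ALG8 at 21.9 ± 1.33, B4GALT1 at 21.5 ± 0.819 and GALNT10 at 21 ± 0.711 FPKM.

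In several classes 1 gene stood well above the rest, as the plot of DMSO levels by class shows. GCNT2, the I-branching enzyme, stood at 18.8 ± 1.16 FPKM while no other gene of its class passed 1 FPKM. FUT8, which adds the core fucose of N-glycans, stood at 14.2 ± 0.0691 FPKM, above FUT11 at 3.23 ± 0.497 FPKM. Among sialyltransferases, ST6GALNAC4 at 10.4 ± 1.35 FPKM and ST3GAL4 at 7.27 ± 0.84 FPKM were highest. In all, 23 genes lay below the count filter, with at most 22 counts in any library: ALG1L, ALG1L2, MGAT3, MGAT4D, GALNT8, GALNT9, GALNT14 to GALNT17, GCNT7, B3GNT6, B3GALT1, B3GALT2, ST6GAL2, ST6GALNAC1 to ST6GALNAC3, FUT3, FUT5, FUT6, FUT7 and FUT9. Of these, MGAT4D, B3GNT6, B3GALT2, FUT7, FUT9 and ST6GAL2 had 0 counts in all 6 libraries, and each such 0 allows up to 3 counts in a library.

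**Figure D1:**
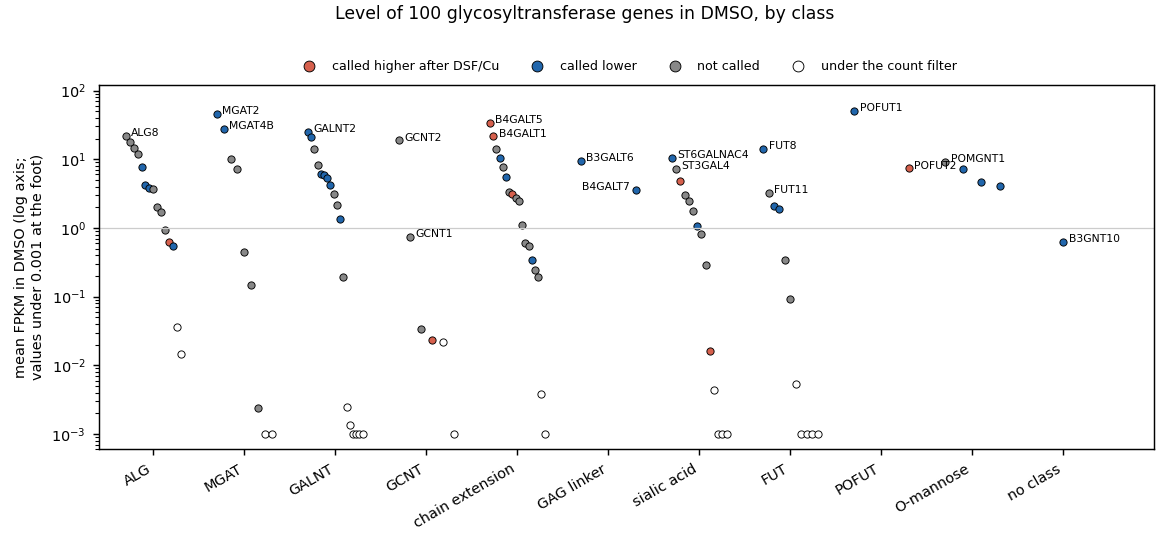
Mean FPKM in DMSO (3 libraries, log axis) of the 100 glycosyltransferase genes, 1 point per gene, ordered within each class and coloured by the call after DSF/Cu. The grey line marks 1 FPKM, which 56 genes reached; POFUT1 stands highest at 50.2 FPKM.

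Libraries were compared as CPM, counts scaled to library size with TMM factors. Changes are log2 ratios of DSF/Cu over DMSO from edgeR's quasi-likelihood F test, n = 3 per group. Their standard error (SE) was derived as the absolute log2 change divided by the square root of the F statistic. A gene was called at a Benjamini-Hochberg adjusted p under 0.05 over all 18229 genes tested. Of the 77 glycosyltransferase genes that passed the count filter, 8 rose and 28 fell. Thus 46.8% of those tested were called, where the share among the 13421 protein-coding genes tested was 41.9%. Genes that rose made up 10.4% of the 77, against 20.8% of protein-coding genes, and genes that fell 36.4%, against 21.1%. Their median log2 change was -0.33, against -0.031 for protein-coding genes and 0.002 for all genes tested. In 54 of the 77 (70.1%), the 3 values of one group did not overlap those of the other, as in 57.4% of protein-coding genes tested. Since genes of this set were put forward with such results in view, nothing further is read from these shares. The counts by class and by list below are to be read beside the same shares of protein-coding genes, 20.8% that rose and 21.1% that fell.

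Whether small changes were called depended on the scaling. Without TMM, on total counts alone, the median of all genes moved to -0.182 and the calls in the set became 4 higher and 40 lower, in place of 8 and 28. Over all 18229 genes tested, the calls became 2356 higher and 4856 lower, in place of 3365 and 3059. RNA was taken from whole cultures, so fewer cells that express a gene and less RNA per cell cannot be told apart. Markers known in this line (VIM, CD44, KRT18, EGFR) summed to 3909 to 4235 CPM in DMSO and 3252 to 3609 CPM after DSF/Cu, while ESR1, PGR and CDH1, low in this line, summed to 1.24 CPM or less in every library. Of the 3 immune markers (PTPRC, CD3E, CD14), CD3E had 0 counts, and the sum was 0.121 to 0.448 CPM in DMSO and 1.16 to 2.46 CPM after DSF/Cu, mostly from CD14. Fibroblast, endothelial and adipocyte markers (PDGFRA, PECAM1, CDH5, ADIPOQ) summed to at most 0.97 CPM, with CDH5 and ADIPOQ at 0 counts. The part of these markers in the differences below was not tested.

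**Figure D2:**
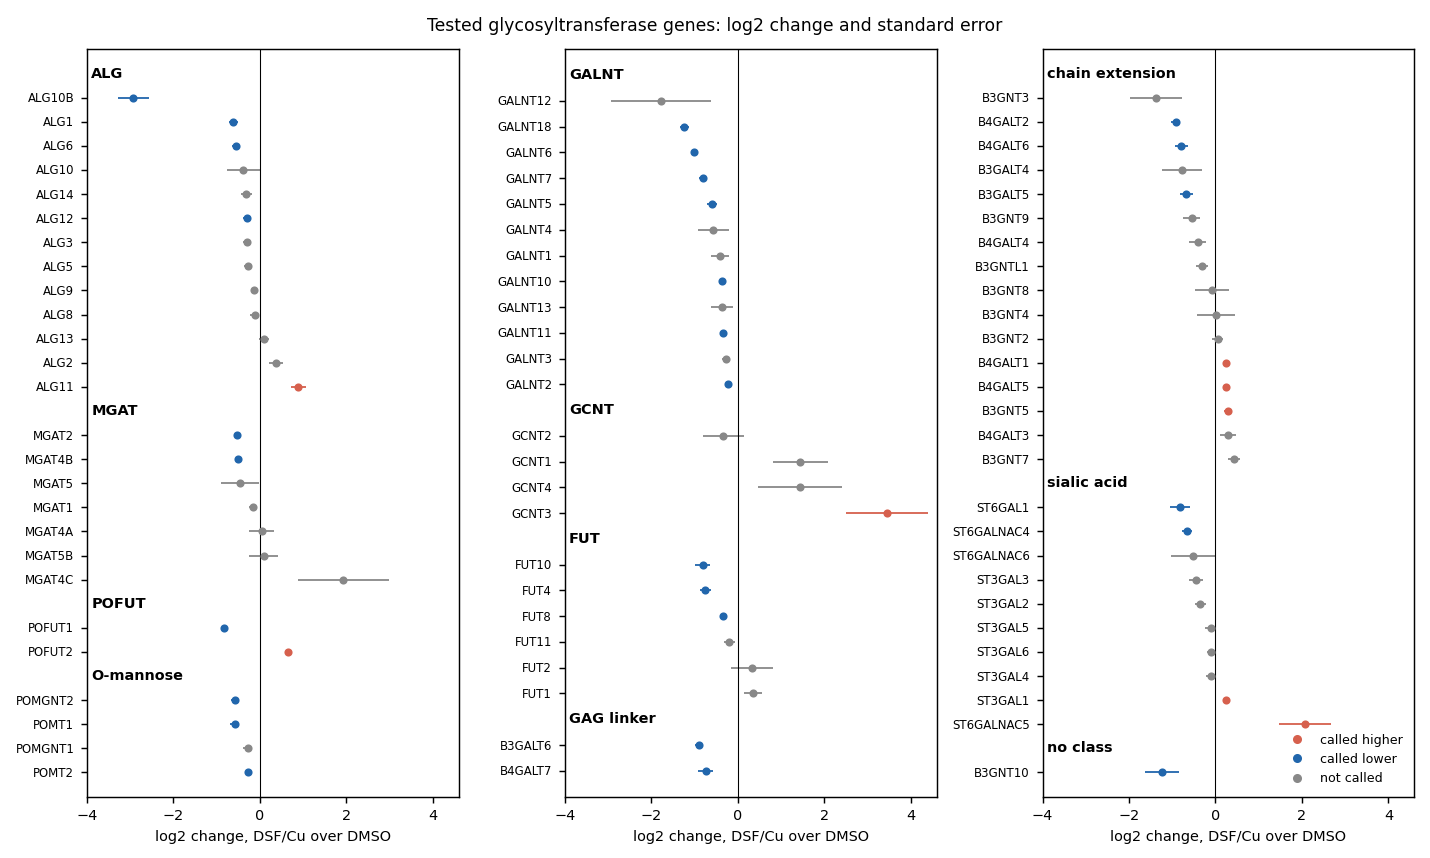
Log2 change (DSF/Cu over DMSO, x axis) with standard error for the 77 tested genes, grouped by class, with called genes in colour. All 12 tested GALNT genes lie left of 0, and POFUT1 and POFUT2 lie on opposite sides.

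In the ALG class, which builds the dolichol-linked precursor of N-glycans, 1 of 13 tested genes rose, 4 fell and 8 were not called, with a median log2 change of -0.30. The mannosyltransferase ALG1, which adds the first mannose, fell in all 3 libraries: it stood at 44.7, 37.5 and 35.2 CPM in DMSO and at 24.8, 25.2 and 26.9 CPM after DSF/Cu. The groups did not overlap, and the change was -0.61 ± 0.11 (adjusted p = 0.00554), with 20.1% of its exon bases shared with EEF2KMT on the other strand. ALG6, which adds the first glucose, went from 23.7, 26.3 and 28.3 CPM to 17.6, 16.5 and 19.3 CPM, again without overlap (-0.55 ± 0.10, adjusted p = 0.00787). The late mannosyltransferase ALG12 fell slightly, from 23.2, 22.9 and 21.2 to 17.8, 18.7 and 18.3 CPM (-0.30 ± 0.08, adjusted p = 0.0299), a call that was lost when any of 5 libraries was left out (all but DMSO replicate 3; adjusted p 0.064 to 0.0901, log2 changes -0.31 to -0.27).

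ALG8, the glucosyltransferase that follows ALG6, stood at 82, 79.7 and 89.2 CPM in DMSO and 83.2, 80.5 and 66.6 CPM after DSF/Cu (-0.12 ± 0.10, adjusted p = 0.384). ALG2, which adds mannose after ALG1, stood at 62.2, 70 and 44.3 CPM against 77.7, 75.6 and 75.1 CPM (0.37 ± 0.16, adjusted p = 0.122). Both are the most abundant ALG genes by FPKM, and neither was called. The other uncalled genes, ALG3, ALG5, ALG9, ALG13 and ALG14, had log2 changes from -0.31 to 0.10; ALG3 and ALG5 missed the threshold with adjusted p = 0.0586 and 0.062, although their groups did not overlap. Each was called lower without 1 library, ALG3 without DSF/Cu replicate 1 (-0.38, adjusted p = 0.0407) and ALG5 without DMSO replicate 1 (-0.34, adjusted p = 0.0402). With all libraries, ALG3 and ALG5 were called lower with DESeq2 (adjusted p = 0.0114 and 0.0162), on total counts (0.00795 and 0.0107) and in limma fits to log2 FPKM. ALG14 was called lower in these fits too, and ALG8 and ALG9 on total counts and in limma. ALG2 was called higher with DESeq2 (adjusted p = 0.0243).

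ALG10 and ALG10B both encode the enzyme that adds the last glucose. ALG10B went from 7.52, 6.46 and 6.34 CPM to 1.42, 0.589 and 0.662 CPM, the steepest fall of any called gene in the set (-2.93 ± 0.36, adjusted p = 0.00145). ALG10 stood at 4.38, 4.37 and 4.56 CPM in DMSO and at 4.64, 1.52 and 4.05 CPM after DSF/Cu (-0.38 ± 0.39, adjusted p = 0.496), so replicate 2 lay far below the DMSO range, replicate 3 slightly below it and replicate 1 above it. Because the copies share long identical runs, as the sequences above show, their counts were also summed, an alternative chosen after seeing the data. The sum fell from 11.9, 10.8 and 10.9 CPM to 6.06, 2.11 and 4.71 CPM (-1.38 ± 0.36, adjusted p = 0.0246).

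ALG11, which adds mannoses on the cytosolic face of the membrane, was the ALG gene that rose, from 6.94, 8.34 and 9.57 CPM to 16.2, 17.1 and 12.8 CPM (0.89 ± 0.17, adjusted p = 0.00805). It shares 39.7% of its exon bases, on the same strand, with UTP14C. UTP14C stood at 28.3, 0.477 and 20.2 CPM in DMSO and 22.8, 24.2 and 31 CPM after DSF/Cu, so DMSO replicate 2 was far below the other libraries. With the counts of both genes summed, the change was 0.75 ± 0.45 (adjusted p = 0.256) and the call was lost.

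**Figure D3:**
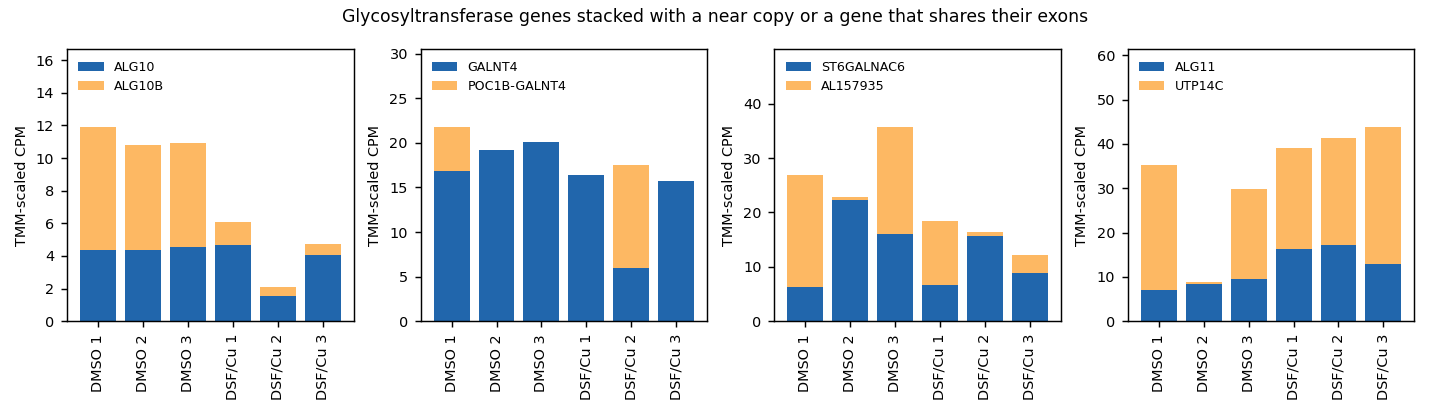
TMM-scaled CPM of ALG10, ALG11, GALNT4 and ST6GALNAC6 in each library, stacked with a near copy or a gene that shares their exons. The split within a stack varies between libraries of 1 group, as for UTP14C, which falls to 0.477 CPM in DMSO replicate 2.

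Of the 7 MGAT genes tested, 2 fell and none rose, with a median of -0.16. MGAT2 stood at 130, 137 and 136 CPM in DMSO and at 92, 97 and 92.7 CPM after DSF/Cu. These groups were well separated (-0.52 ± 0.05, adjusted p = 0.000707), and 91.9% of MGAT2 exon bases lie opposite an antisense gene that holds at most 202 counts in any library. MGAT4B, which adds a branch to the first arm, went from 182, 154 and 166 CPM to 125, 110 and 121 CPM (-0.50 ± 0.08, adjusted p = 0.00466). MGAT1 and MGAT5 are described for their roles, chosen after their values were seen. MGAT1, which adds the GlcNAc that all later branches need, stood at 111, 144 and 140 CPM against 121, 116 and 116 CPM (-0.16 ± 0.10, adjusted p = 0.295). MGAT5, which adds a branch that favours galectin binding, varied widely between libraries of 1 group, with 93.2, 63.5 and 56.4 CPM in DMSO and 32.2, 92.1 and 30.9 CPM after DSF/Cu (-0.46 ± 0.45, adjusted p = 0.488). Without DSF/Cu replicate 2, MGAT5 was called lower (-1.17, adjusted p = 0.0175), and without DMSO replicate 1 so was MGAT1 (-0.27, adjusted p = 0.0202). The remaining genes, MGAT4A, MGAT4C and MGAT5B, stayed at or below 4.55 CPM in every library and were not called.

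The GALNT class, which starts mucin-type O-glycans by adding GalNAc to serine or threonine, held the largest number of called genes. Of 12 tested genes, 7 fell and none rose, with a median of -0.49, and all 12 log2 changes were below 0, from -1.77 to -0.23. The 7 are 58.3% of those tested, where 21.1% of protein-coding genes tested fell. The called share was higher in the smaller O-mannose (75%), POFUT (100%) and proteoglycan linker (100%) classes. GALNT6 went from 35.3, 34.6 and 32.6 CPM to 16.3, 17.4 and 17.2 CPM, so that every treated library held less than any DMSO library (-1.01 ± 0.08, adjusted p = 0.000246). GALNT18 went from 22.3, 21.3 and 21.6 CPM to 9.06, 8.4 and 10.3 CPM, with a mean 2.35-fold lower (-1.23 ± 0.11, adjusted p = 0.000434). GALNT7, which prefers peptides that already carry GalNAc, went from 50.5, 43.1 and 43.4 CPM to 24.9, 25.9 and 27.4 CPM (-0.81 ± 0.09, adjusted p = 0.00098).

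Both GALNT genes of highest FPKM fell less. GALNT10 stood at 252, 240 and 241 CPM in DMSO and 190, 189 and 192 CPM after DSF/Cu, groups that are far apart relative to their spread (-0.36 ± 0.05, adjusted p = 0.0015). GALNT2 stood at 223, 220 and 199 CPM against 175, 186 and 187 CPM (-0.23 ± 0.06, adjusted p = 0.0339). The GALNT2 call was lost when any library other than DMSO replicate 3 was left out (adjusted p 0.0631 to 0.102, log2 changes -0.24 to -0.19). GALNT5 fell by 0.59 on the log2 scale (adjusted p = 0.00892). GALNT11 fell by 0.33 (adjusted p = 0.0302), a call lost without any of 5 libraries (all but DSF/Cu replicate 3; adjusted p 0.0543 to 0.0871).

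Of the GALNT genes not called, GALNT1, GALNT3, GALNT4, GALNT12 and GALNT13, the GALNT3 groups did not overlap (42.6, 40.4 and 47.3 against 33.8, 36.6 and 37.7 CPM), and its change of -0.27 ± 0.09 lay at the threshold. GALNT4 shares 93.2% of its exon bases with the readthrough gene POC1B-GALNT4, and its 16.9, 19.2 and 20.1 CPM in DMSO stood against 16.4, 5.99 and 15.7 CPM after DSF/Cu (-0.56 ± 0.36, adjusted p = 0.277). In DSF/Cu replicate 2, the library low for GALNT4, the readthrough gene held 11.5 CPM. Summed, the pair stood at 21.8, 19.3 and 20.1 CPM against 16.4, 17.5 and 15.7 CPM, without overlap (-0.30 ± 0.09, adjusted p = 0.0445). GALNT12 stayed under 1 CPM in every library. Leaving out 1 library gave a call to GALNT12 (without DSF/Cu replicate 2, -4.20, adjusted p = 0.0356) and to GALNT1 (without DMSO replicate 2, -0.60, adjusted p = 0.0375). Among GALNT genes below the main count filter, 1 was called higher without DSF/Cu replicate 2, and 1 with no count filter.

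GCNT enzymes branch O-glycan cores and poly-N-acetyllactosamine, and B3GNT6, another enzyme of O-glycan cores, was placed in their class. Of 4 tested genes 1 rose and none fell, with a median of 1.45. GCNT3, a mucin core-branching enzyme, rose from 0, 0.283 and 0.227 CPM to 1.42, 2.15 and 2.02 CPM (3.46 ± 0.95, adjusted p = 0.0303). It stayed far below the abundant members, and its call was lost without any library but DMSO replicate 1 (adjusted p 0.0553 to 0.0811, log2 changes 3.34 to 4.05). GCNT1, the core 2 enzyme, stood at 15.7, 4.37 and 2.57 CPM in DMSO and at 17, 19.6 and 25.4 CPM after DSF/Cu. The groups did not overlap, but DMSO replicate 1 lay close to the treated libraries (1.45 ± 0.64, adjusted p = 0.129). Without DMSO replicate 1, GCNT1 was called higher after DSF/Cu (2.57, adjusted p = 0.00431). GCNT2 stood at 202, 186 and 182 CPM against 52.6, 174 and 226 CPM, so that only DSF/Cu replicate 1 departed strongly (-0.33 ± 0.47, adjusted p = 0.632). Without that library the GCNT2 change was 0.08 (adjusted p = 0.68). GCNT4, at most 1.1 CPM, was not called.

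Among the B3GNT, B3GALT and B4GALT genes that extend chains with GlcNAc and galactose, 3 of 16 tested rose, 3 fell and 10 were not called, with a median of -0.19. B4GALT2, a galactosyltransferase of glycoproteins, went from 47.7, 45.1 and 39.8 CPM to 25.9, 22.6 and 21.4 CPM, with no overlap (-0.92 ± 0.11, adjusted p = 0.00118). B4GALT6 went from 27, 32.6 and 36.4 CPM to 15.7, 18.6 and 21.2 CPM (-0.79 ± 0.15, adjusted p = 0.00877), while B4GALT5, which shares its lactosylceramide synthase role, went from 176, 180 and 179 CPM to 210, 215 and 210 CPM (0.25 ± 0.04, adjusted p = 0.00566). Both pairs of groups were apart, in opposite directions. B3GALT5, which makes type 1 chains, fell from 5.63, 5.56 and 5.28 CPM to 3.05, 3.93 and 3.31 CPM (-0.68 ± 0.15, adjusted p = 0.0146).

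B4GALT1, the widely expressed enzyme that is also part of lactose synthase in the breast, stood at 113, 115 and 122 CPM in DMSO and 146, 135 and 137 CPM after DSF/Cu (0.25 ± 0.06, adjusted p = 0.0154). B3GNT5, which starts lacto-series glycolipids, had the other small rise (0.28 ± 0.08, adjusted p = 0.0368). The rises of B4GALT5, B4GALT1 and B3GNT5 and of the sialyltransferase ST3GAL1 were not called on total counts or in limma fits to log2 FPKM. Leaving out DMSO replicate 2 took the B4GALT1 call (0.24, adjusted p = 0.0578), and leaving out any library took that of B3GNT5 (adjusted p 0.0529 to 0.107). The uncalled genes were B3GALT4, B3GNT2, B3GNT3, B3GNT4, B3GNT7, B3GNT8, B3GNT9, B3GNTL1, B4GALT3 and B4GALT4, with log2 changes from -1.38 (B3GNT3, under 1 CPM throughout) to 0.42 (B3GNT7, adjusted p = 0.0559). Of these, B4GALT4 was called lower without DMSO replicate 2 (-0.60, adjusted p = 0.0244). B3GNT10, which was put in no class, fell from 1.89, 1.94 and 1.38 CPM to 0.815, 0.381 and 1 CPM (-1.24 ± 0.39, adjusted p = 0.0487), a call lost without any library but DSF/Cu replicate 3 (adjusted p 0.0688 to 0.127, log2 changes -1.39 to -0.93).

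Sialyltransferases, which cap chains with sialic acid, were divided: of 10 tested, 2 rose, 2 fell and 6 were not called, with a median of -0.23. ST6GALNAC4, which adds sialic acid to GalNAc of O-glycans, went from 34.6, 28.2 and 28.1 CPM to 20.5, 19.6 and 17.6 CPM, without overlap (-0.66 ± 0.12, adjusted p = 0.00592). ST6GAL1, which caps N-glycans with alpha-2,6-linked sialic acid, went from 10.5, 12 and 10 CPM to 4.15, 7.52 and 6.64 CPM (-0.83 ± 0.23, adjusted p = 0.0317). Its call was lost without any of 4 libraries (DMSO replicate 1, 2 or 3, or DSF/Cu replicate 3; adjusted p 0.0599 to 0.0942, log2 changes -0.89 to -0.76). ST3GAL1, which caps core 1 O-glycans, rose from 49.9, 47.3 and 46.5 CPM to 58.7, 58.2 and 53.5 CPM (0.25 ± 0.07, adjusted p = 0.0302), a call lost without any of 4 libraries (DMSO replicate 2 or 3, DSF/Cu replicate 1 or 2; adjusted p 0.0779 to 0.104).

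ST6GALNAC5, a ganglioside sialyltransferase, rose from 0.105, 0.179 and 0.0605 CPM to 0.567, 0.606 and 0.303 CPM (2.08 ± 0.60, adjusted p = 0.0354), and its call was lost without any of 4 libraries (DMSO replicate 1 or 3, DSF/Cu replicate 1 or 2; adjusted p 0.1 to 0.113, log2 changes 1.78 to 2.02). At under 1 CPM throughout, it was among the least abundant genes tested. ST3GAL4 stood at 40.5, 34.5 and 33.2 CPM against 30.4, 34.1 and 36.8 CPM and overlapped (-0.10 ± 0.11, adjusted p = 0.554). ST6GALNAC6 stood at 6.2, 22.2 and 16 CPM against 6.61, 15.7 and 8.85 CPM (-0.51 ± 0.51, adjusted p = 0.487) and shares 47% of its exon bases with the gene AL157935. The sum of both fell (-0.85 ± 0.21, adjusted p = 0.0221). ST3GAL2, ST3GAL3, ST3GAL5 and ST3GAL6 were not called, with log2 changes of -0.45 to -0.10. Of these, ST3GAL2 and ST3GAL3 were called lower with DESeq2 (adjusted p = 0.0147 and 0.0245) and on total counts (0.0186 and 0.022).

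Of 6 tested genes with FUT names, a family grouped here as adding fucose to glycans, 3 fell and none rose, with a median of -0.27. FUT10 and FUT11 were placed in it by name alone. FUT8 stood at 105, 107 and 106 CPM in DMSO and 79.1, 87.7 and 82.3 CPM after DSF/Cu, with every treated library below every DMSO library (-0.35 ± 0.06, adjusted p = 0.00477). FUT4, which makes Lewis x structures, went from 12.6, 12.6 and 12.7 CPM to 6.72, 8.69 and 7.13 CPM (-0.75 ± 0.13, adjusted p = 0.0057). FUT10 went from 11.1, 15.2 and 12.3 CPM to 6.06, 8.45 and 7.47 CPM (-0.81 ± 0.18, adjusted p = 0.0141). FUT11 stood at 15.6, 16.6 and 20.8 CPM against 14.8, 15.2 and 16.5 CPM, and the groups overlapped (-0.19 ± 0.13, adjusted p = 0.311). FUT1 and FUT2 were not called, and FUT3, FUT5 and FUT6, near copies whose aligned coding sequences are 87.4% to 90.6% identical, held at most 21 counts in any library. Without DMSO replicate 3, 1 FUT gene from below the main count filter was called higher.

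The O-fucose starters POFUT1 and POFUT2 moved in opposite directions, and both were called. POFUT1 stood at 359, 364 and 349 CPM in DMSO and at 191, 208 and 201 CPM after DSF/Cu. The 3 treated libraries lay far below the DMSO libraries, with a mean 1.78-fold lower (-0.83 ± 0.05, adjusted p = 0.000122), the lowest adjusted p in the set. POFUT2, which puts fucose onto thrombospondin type 1 repeats, stood at 51, 47.3 and 45.1 CPM against 75.1, 77.2 and 74.3 CPM. Here the treated libraries were the higher ones, with a mean 1.58-fold above DMSO (0.66 ± 0.07, adjusted p = 0.000697). Both calls held under all 12 alternative settings tried beside the main test.

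**Figure D4:**
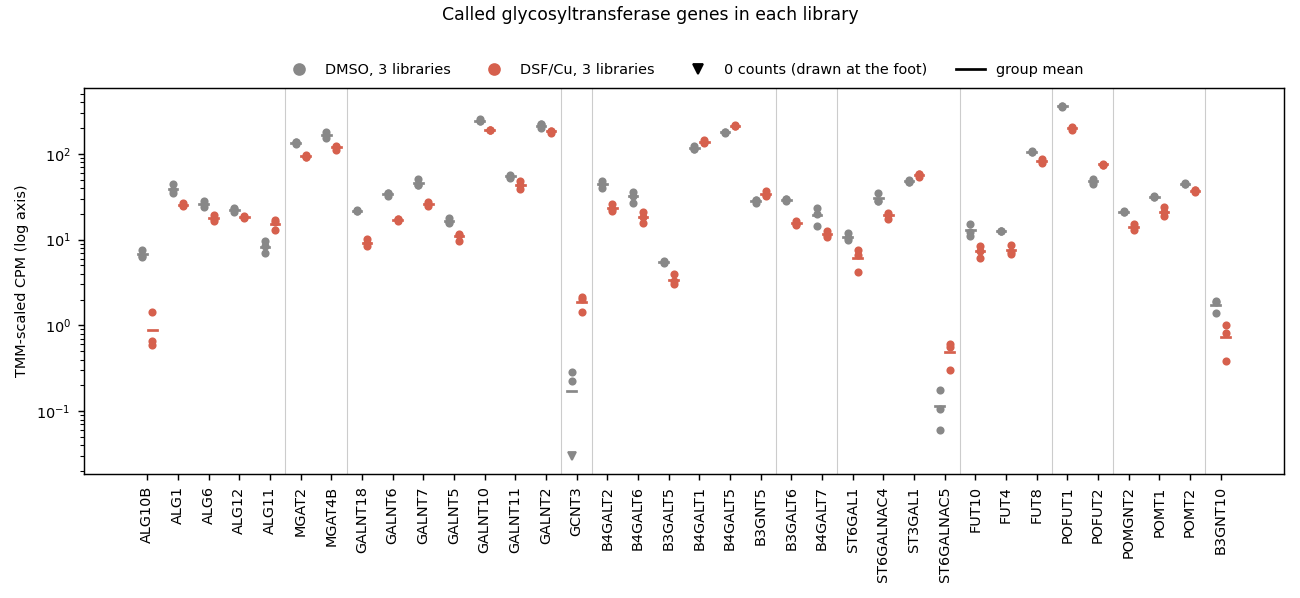
TMM-scaled CPM (log axis) of the 36 called genes in each of 3 DMSO (grey) and 3 DSF/Cu (orange) libraries, with a bar at each group mean. POFUT1 falls from 349 to 364 CPM to 191 to 208 CPM, and POFUT2 rises from 45.1 to 51 CPM to 74.3 to 77.2 CPM.

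Of 11 other tested genes listed for O-fucose and O-glucose on EGF-like and thrombospondin repeats, 7 fell and none rose (median -0.48). They included XXYLT1, which adds a xylose to O-glucose glycans (-0.73 ± 0.08, adjusted p = 0.001), POGLUT1, which starts O-glucose (-0.76 ± 0.10, adjusted p = 0.00172), and KDELC2, another protein O-glucosyltransferase (-0.79 ± 0.13, adjusted p = 0.00509). In mean CPM, POGLUT1 stood at 19.3 ± 1.13 (SD) in DMSO and 11.4 ± 0.661 after DSF/Cu. The 11 genes also include the O-GlcNAc transferases EOGT (-0.22, adjusted p = 0.617) and OGT (0.20, adjusted p = 0.0869). Neither was called, and OGT does not act on these repeats.

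O-mannose glycans, best known on alpha-dystroglycan, start with POMT1 and POMT2, and POMGNT1 and POMGNT2 add the next GlcNAc. Of these 4 genes 3 fell, with a median of -0.43. In all 4 the groups did not overlap, which also held for 57.4% of protein-coding genes tested. POMGNT2 stood at 21.1, 21.3 and 21 CPM in DMSO and 13, 15.4 and 13.9 CPM after DSF/Cu (-0.58 ± 0.09, adjusted p = 0.00424). POMT1 stood at 31.3, 32.3 and 31.4 CPM against 20.9, 18.9 and 23.9 CPM (-0.58 ± 0.10, adjusted p = 0.00601). POMT2, its partner in the enzyme complex, changed less, from 46.3, 44.2 and 44.1 CPM to 36.4, 37.9 and 37.7 CPM (-0.27 ± 0.06, adjusted p = 0.0159). POMGNT1 stood at 70, 59.8 and 59.2 CPM against 47.7, 50.6 and 57.5 CPM and was not called (-0.28 ± 0.10, adjusted p = 0.0778). It was called lower without DSF/Cu replicate 3 (-0.35, adjusted p = 0.0495). With all libraries it was called lower with DESeq2 (adjusted p = 0.0225), on total counts (0.0177) and in limma fits to log2 FPKM. Later genes of the pathway held 3 of 7 tested that fell and none that rose (median -0.49): B4GAT1, which primes the matriglycan chain (29.2 ± 1.87 against 11.9 ± 1.75 mean CPM; -1.29 ± 0.13, adjusted p = 0.000641), RXYLT1 (-0.49, adjusted p = 0.0111) and B3GALNT2 (-0.20, adjusted p = 0.0447).

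Both galactosyltransferases of the tetrasaccharide that links glycosaminoglycans to proteoglycans fell. B3GALT6, which adds the outer galactose, went from 29.7, 29.8 and 27.9 CPM to 14.9, 15.3 and 16.6 CPM, with no overlap and a mean 1.87-fold lower (-0.90 ± 0.08, adjusted p = 0.000521). B4GALT7, which adds the inner galactose, went from 23.3, 19.8 and 14.6 CPM to 11.4, 12.6 and 10.6 CPM (-0.74 ± 0.18, adjusted p = 0.0206). The B4GALT7 groups did not overlap either, but DMSO replicate 3 lay near the treated libraries. Its call was lost without any of 4 libraries (DMSO replicate 1 or 2, DSF/Cu replicate 1 or 3; adjusted p 0.055 to 0.0674, log2 changes -0.73 to -0.58).

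The enzymes before and after both galactoses were examined as well, and of 7 tested genes of this route 5 fell and 1 rose (median -0.57). XYLT2, which adds the xylose that starts the linker, went from 30.8, 28.4 and 29.5 CPM to 16.4, 17.7 and 18 CPM (-0.77 ± 0.08, adjusted p = 0.000782), and XYLT1 had 0 counts. B3GAT3, which closes the linker with glucuronic acid and was picked here for its step after its values were seen, went from 42.4, 39.6 and 41.5 CPM to 26.3, 22.2 and 25.5 CPM (-0.74 ± 0.09, adjusted p = 0.00126). For XYLT2, B4GALT7, B3GALT6 and B3GAT3, every treated library was below every DMSO library, as it was for 29.9% of protein-coding genes tested. The linker kinase FAM20B, picked likewise, was not called (-0.07, adjusted p = 0.333), although its treated libraries also lay below its DMSO libraries. EXTL2 fell (-0.57 ± 0.06, adjusted p = 0.000628), while CSGALNACT2, which starts chondroitin sulfate chains on the linker, rose from 106, 107 and 112 CPM to 183, 179 and 178 CPM (0.73 ± 0.05, adjusted p = 0.000169). Its paralog for the same step, CSGALNACT1, named after its values were seen, fell from 1.64, 1.85 and 1.94 CPM to 0.585, 0.71 and 0.965 CPM (-1.26 ± 0.27, adjusted p = 0.0119).

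**Figure D5:**
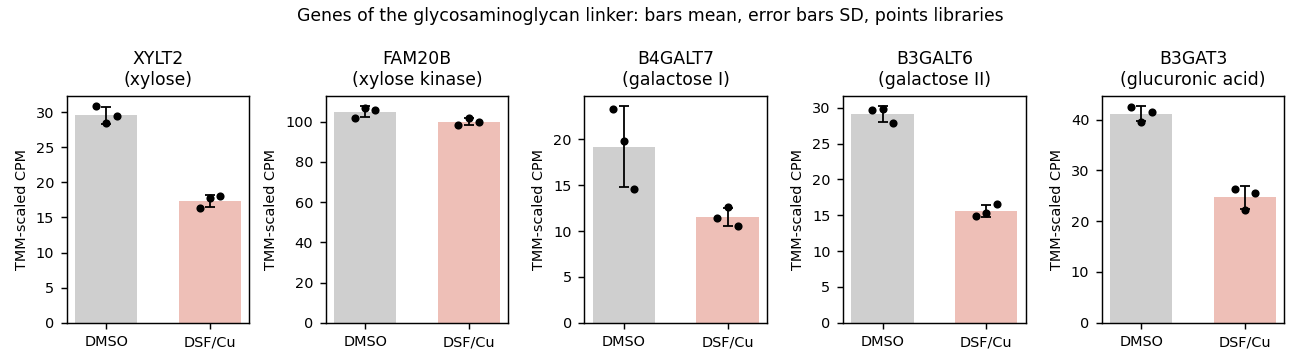
TMM-scaled CPM of genes of the glycosaminoglycan linker in DMSO and DSF/Cu, with bars at the mean, error bars of 1 SD and points for the 3 libraries of each group. XYLT2, B4GALT7, B3GALT6 and B3GAT3 are lower after DSF/Cu.

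Genes that supply or process the chains were counted from lists drawn up by role. Of 14 genes of dolichol metabolism and the first steps in the endoplasmic reticulum, 6 fell and 2 rose (median -0.19), among them DPM3, a subunit of dolichol-phosphate-mannose synthase (-0.91, adjusted p = 0.00264), the dolichol kinase DOLK (-0.52, adjusted p = 0.00312) and the dolichyl-diphosphate phosphatase DOLPP1, which rose (0.48, adjusted p = 0.00365). Of the 12 subunits of oligosaccharyltransferase, which moves the finished precursor onto asparagine, 11 were not called and MAGT1 rose (0.29 ± 0.06, adjusted p = 0.00961; median 0.01). Of 13 genes of glycan trimming and glycoprotein folding control, 7 fell and 2 rose (median -0.32). The trimming glucosidases moved in opposite directions: MOGS, glucosidase I, went from a mean of 21.5 ± 1.78 CPM to 48.1 ± 5.36 CPM (1.16 ± 0.11, adjusted p = 0.000557), and GANAB, the catalytic subunit of glucosidase II, from 550 ± 7.31 CPM to 388 ± 5.01 CPM (-0.50 ± 0.04, adjusted p = 0.000277). The lectin chaperone CALR rose from 1458 ± 15.2 CPM to 2032 ± 149 CPM (0.48 ± 0.06, adjusted p = 0.00133). The Golgi mannosidases MAN2A1 (-0.28, adjusted p = 0.0126) and MAN2A2 (-0.49, adjusted p = 0.0163) were the 2 of 4 tested that fell (median -0.24).

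Sugar donors showed both directions: of 17 genes of nucleotide sugar synthesis 4 rose and 3 fell (median -0.06). PGM3 of the UDP-GlcNAc route rose from 77.6 ± 2.92 to 132 ± 5.35 mean CPM (0.77 ± 0.06, adjusted p = 0.000263), as did UAP1L1 (1.01 ± 0.12, adjusted p = 0.00107) and UGDH, which makes UDP-glucuronic acid (0.60 ± 0.10, adjusted p = 0.00391). GMDS, TSTA3 and GNE were the 3 that fell. Of 11 nucleotide sugar transporters of the SLC35 family, 5 fell and none rose (median -0.54), including SLC35A4 (-0.57, adjusted p = 0.00382), the GDP-fucose transporter SLC35C1 (-0.69, adjusted p = 0.00422) and SLC35B4 (-0.62, adjusted p = 0.00804). In mucin-type core synthesis, C1GALT1C1, the chaperone of the core 1 galactosyltransferase, fell (-0.37, adjusted p = 0.0199), and it was the 1 of 2 tested genes that was called (median -0.24).

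Promoter letters were compared between the set and all genes. RefSeq promoters were found for 76 of the 100 genes. CCACG, on either strand, occurred in 46.1% of them and in 37.9% of all 27305 promoters of the table. It was present in 3 of 7 genes that rose (ALG11, B4GALT1, POFUT2) and in 13 of 22 that fell. Of genes not called 12 of 32 held it, and of genes below the count filter 7 of 15. Whether the motif goes with the calls was not tested. The metal response element core, searched on both strands as TGCGCNC and TGCACNC, occurred in 31.6% and 10.5% of the 76, and in 20% and 11.9% of all. For TGACNNNGC, the core of the antioxidant response element, the shares were 14.5% and 13.6%, for TTCNNGAA, of the heat shock element, 2.63% and 7.84%, and for TGATGNAAN, of the amino acid response element, 2.63% and 3.67%. TGACGTGG, of the unfolded protein response element, which contains CGTGG and so overlaps CCACG, was in none of the 76 and in 0.795% of all.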

How the data were processed

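The members and all gene lists were chosen with earlier results of these data known. Poly(A) RNA of 6 libraries, 3 DMSO and 3 DSF/Cu, was analysed from 1 deposited table. Its Control columns were read as DMSO, the only vehicle group of the labels. The count columns were deposited by the authors as whole numbers per gene, and the FPKM columns as length-scaled values, per the file headers. A count of 0 is listed there as an FPKM of at most 0.0001. In the submitters' processing notes the tools are StringTie 1.3.0, HISAT2 2.0 and Bowtie 0.12.2, with no role or order, and the build is mm8, of mouse, although the genes are human. Counter, strandedness and annotation version were not given in the sources used here. All 100 gene IDs occur in GENCODE 29 (GRCh38), 44 of them with identical start and end, and coordinates are those of the table. For 16 genes over 20% of exon bases are shared with another gene, and without a known strand setting such counts may be split between them.

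Counts were fitted over all genes that passed edgeR's filterByExpr with edgeR 4.0.16 in R 4.3.3 (TMM scaling, glmQLFit and glmQLFTest, both groups, no covariate, Benjamini-Hochberg adjustment). CPM values are TMM-scaled. Alternatives were DESeq2 1.42.0, total-count scaling, no count filter, a replicate block, limma 3.58.1 on log2(FPKM + 1) and log2(FPKM + 0.1), and each library left out, 12 in all; summing counts with an overlapping gene or near copy was added after seeing the data. The fit was tested on simulated data. Given in full are, per class, up to 4 called genes by adjusted p and the 2 of highest DMSO FPKM (39 genes), and of each pathway list up to 3 called genes by adjusted p; ALG12, GALNT5, GALNT11, B3GNT5 and uncalled genes outside this rule are given to account for each member. No libraries were near-duplicates: chi-square per degree of freedom between libraries of a group was 45.7 to 58.1. Motifs were searched with Python 3.11.15. Some genes of the pathway and marker lists are not reported here.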

Additional observations from a re-analysis of the deposited data

How the results depend on the processing

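The 8 genes that rose became 10 with DESeq2, 4 on total counts, 6 without a count filter, 5 with a replicate block, 3 in limma on log2(FPKM + 1), 3 on log2(FPKM + 0.1), and 4 to 7 when 1 library was left out (4 without DMSO replicate 2 or DSF/Cu replicate 1, 5 without DMSO replicate 3 or DSF/Cu replicate 2). With partner counts summed they were 7. The 28 that fell became 36, 40, 27, 25, 41 and 39 in the same order, 24 to 26 with a library left out and 30 with partner counts summed. Calls over all genes moved as well. There, 3365 rose in the main fit, and 4364, 2356, 2967, 2692, 2485 and 2544 in the same order. The 3059 that fell became 3952, 4856, 2753, 2451, 4791 and 4727. With a library left out, 2786 to 2953 rose and 2284 to 2550 fell. Without the count filter 29289 genes were tested, in place of 18229. Under all 12 settings other than summed partners, 21 of the 28 and 2 of the 8 (POFUT2, ALG11) were called; ALG11 was lost with partner counts summed (adjusted p 0.256). Deviations of libraries with the same replicate number correlated at 0.021, -0.008 and 0.044, and not each correlated best with its own number. Whether libraries of the same number were prepared together cannot be read from these values. With the block, the calls of ALG12, GALNT2, GALNT11, POMT2, B3GNT5, B3GNT10, ST3GAL1 and ST6GALNAC5 were lost (adjusted p 0.0544 to 0.0989). Without the count filter B3GNT5, B3GNT10, ST3GAL1 and ST6GALNAC5 were lost (0.0654 to 0.0731). On total counts B3GNT5, B4GALT1, B4GALT5 and ST3GAL1 were lost (0.325 to 0.536), and in limma these and ST6GALNAC5 (0.115 to 0.486 with + 1, 0.0549 to 0.474 with + 0.1). FPKM is not scaled by TMM, and its median over all genes was -0.068 (+ 1) and -0.149 (+ 0.1). Other genes gained calls. GALNT3, POMGNT1, B3GNT9, ST3GAL2, ALG3, ALG5 and ALG14 were called lower with DESeq2, on total counts and in both limma fits. ST3GAL3 was called lower in these except limma with + 0.1. ALG8, ALG9 and B3GNTL1 were called lower on total counts and in limma, and MGAT1 on total counts. GALNT12 (limma), B3GALT4 (limma with + 1), B3GNT9 and GALNT1 (block) were called lower. ALG2 and B3GNT7 were called higher with DESeq2. No called gene changed direction in these alternatives. Why calls differ between them was not tested. Counts limit the genes under 1 CPM, such as GCNT3 in DMSO and ST6GALNAC5.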
